A study of Mus musculus with 7 samples.

Results

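Genes of glucose breakdown and of the response to low oxygen were followed through the development of the mouse lung epithelium: Hif1a, Egln3, Slc2a1, Hk2, Pfkp, Pgk1, Eno1, Ldha, Pdk1 and Bnip3. They were taken by gene symbol, and each of the 10 was found among the 21121 genes listed in every library and among the 12964 with enough reads to be tested. The cells came from C57BL/6 lungs of embryonic day 13.5 (E13.5), E15.5 and E18.5 and of postnatal day 14 (P14) and P56, with no genetic change or treatment given in the labels. Flow cytometry had kept viable cells that carried the epithelial surface protein Epcam and lacked CD31, CD45, Ter119 and CD146, which mark vessel and blood cells. RNA was counted by 3' SAGE sequencing, in which a short tag near the 3' end stands for 1 amplified transcript, and is given as a scaled tag count (the authors' tag count divided by 1 factor per library). Of the 7 libraries, E18.5 and P56 had 2 each and the other stages 1 each. The number of animals, litters or sorts behind each library is not in the labels, so p-values measure only the spread between these samples, which may be technical.

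Cells take up glucose through carriers such as that encoded by Slc2a1 (GLUT1), and the enzymes of glycolysis turn it into pyruvate. Pyruvate enters the mitochondria or, when oxygen is short, is reduced to lactate by lactate dehydrogenase, of which Ldha encodes the A subunit. Hypoxia-inducible factors (HIFs) pair an oxygen-sensitive alpha subunit (Hif1a, Epas1 or Hif3a) with a stable beta subunit (Arnt). In the presence of oxygen, prolyl hydroxylases encoded by Egln1, Egln2 and Egln3 mark the HIF1A and EPAS1 proteins for destruction, so the amount of Hif1a RNA does not report HIF activity. HIFs bind DNA with the core letters ACGTG or GCGTG near genes such as Slc2a1, Pgk1, Ldha, Pdk1, Bnip3 and Egln3 itself. The fetal lung is filled with fluid at low oxygen, and its epithelium meets air at birth.

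All 10 are protein-coding genes in GENCODE vM21, whose GRCm38 (mm10) coordinates are given. Hif1a lies at chr12:73901375-73947530 and Egln3 at chr12:54178981-54203860. Slc2a1 lies at chr4:119108711-119137983 and Eno1 on the same chromosome at chr4:150236721-150248879. Ldha lies at chr7:46841475-46855627 and Bnip3 at chr7:138890836-138909519. Hk2 lies at chr6:82725025-82774454, Pfkp at chr13:6579768-6648777, Pdk1 at chr2:71873224-71903858 and Pgk1 at chrX:106187100-106203699.

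The core letters of the HIF site were looked for in the 250 bases before each RefSeq start (GRCm38.p6), on both strands, because most of these members are known HIF targets. All 10 members had an entry, with 14 windows, and each had at least 1 window with ACGTG or GCGTG (13 of the 14 windows). Among the 11892 windows of tested genes 21.4% held ACGTG, 43.9% held GCGTG and 55.2% held either, so such letters are common. Of all 32851 windows, 38.6% held either. ACGTG matches overlap on both strands where the letters read CACGTG. The windows of Egln3 and Pgk1, which fell after birth, and the first of the 2 windows of Ldha, which did not fall, are shown 5' to 3' on the gene's strand, with matches in capitals (a match on the opposite strand reads CACGT). They cover chr12:54203875-54204124 on the minus strand for Egln3, and on the plus strand chrX:106186850-106187099 for Pgk1 and chr7:46845554-46845803 for Ldha.
Egln3: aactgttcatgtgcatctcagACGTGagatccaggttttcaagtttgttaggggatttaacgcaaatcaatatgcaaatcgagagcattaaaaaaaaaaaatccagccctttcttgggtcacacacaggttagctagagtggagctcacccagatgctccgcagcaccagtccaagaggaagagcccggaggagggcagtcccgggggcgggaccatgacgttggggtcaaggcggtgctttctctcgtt
Pgk1: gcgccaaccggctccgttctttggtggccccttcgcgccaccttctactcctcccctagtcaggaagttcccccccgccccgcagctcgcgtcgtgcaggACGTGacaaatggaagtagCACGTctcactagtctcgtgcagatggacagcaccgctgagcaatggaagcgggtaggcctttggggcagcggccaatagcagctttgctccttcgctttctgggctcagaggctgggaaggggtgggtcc
Ldha: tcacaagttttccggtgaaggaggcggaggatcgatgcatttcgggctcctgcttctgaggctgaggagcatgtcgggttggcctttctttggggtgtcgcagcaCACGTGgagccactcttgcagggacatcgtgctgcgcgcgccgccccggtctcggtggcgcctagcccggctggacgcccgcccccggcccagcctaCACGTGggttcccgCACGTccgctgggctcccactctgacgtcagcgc
Egln3 had 1 match, 229 bases before the start, and Pgk1 had 2 ACGTG matches at 150 and 131 bases. The Ldha window had 3 separate places with ACGTG, 2 of them reading CACGTG. The window of Slc2a1, not printed, held ACGTG 36 bases and GCGTG (opposite strand) 61 bases before the start. At least 3 separate places with either ACGTG or GCGTG were present in 8.38% of windows of tested genes. A match is a description of these letters and not evidence of binding.

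Depth was 2559927 to 3895740 reads per library, with 1 read worth 0.236 to 0.385 units. Epcam lay between 55.8 and 213 in the 7 libraries. Ptprc, which encodes CD45, and Pecam1, which encodes CD31, each had 0 to 4 reads per library. Other markers of the excluded cells were not all so low. Mcam, the gene of CD146, had 26 and 14 reads in the early libraries and 4 or fewer in each later one. The 7 endothelial markers, Pecam1 and Mcam included, took 0.00285% of reads at E13.5 (111 reads) and 0.00305% at E15.5 (78 reads). They took 0.000602% to 0.00181% in the later libraries (23 to 65 reads). The 6 red cell markers took 0% and 0.00459% in the E18.5 pair (0 and 129 reads). In the other libraries they took 0.000513% to 0.00401% (20 to 153 reads). Markers of cell types moved with stage. The 8 dividing cell markers together took 0.151% and 0.142% of reads at E13.5 and E15.5 and 0.00172% to 0.00731% in the later libraries. The 9 alveolar type 1 markers took 0.00570% and 0.0737% at the early stages and 0.680% and 0.732% in the E18.5 pair. They took 0.625% in the P14 library and 0.316% and 0.356% in the P56 pair, with no marker at 0 in any library. From E18.5 to P56, 8 of the 9 fell, 88.9% against 14.2% of all tested genes, with a median log2 change of -3.64. The other, Aqp5, was not called (stage means 2056 at E18.5 and 2772 at P56). It made up most of the summed value of the 9 in the P56 pair (3231 and 3721). The 8 alveolar type 2 markers took 0.0250% (Slc34a2 and Lyz1 at 0) and 0.239% at the early stages, 0.979% and 0.887% in the E18.5 pair, 3.50% in the P14 library and 4.87% and 5.26% in the P56 pair. The 5 immune markers other than Lyz2, which type 2 cells also make, had 100 reads at P14 and 1 to 19 in the other libraries. Csf1r alone made up 22.3 of their summed value of 27.5 at P14, whereas Tyrobp stood at 3.03 there and 3.31 at E13.5. The share of the 9 mesenchymal markers was highest in the E15.5 library (0.0218%), against 0.00634% in that of E13.5 and 0.00536% to 0.0126% later. Of the 7 of them tested, Col1a1, Col1a2, Col3a1, Tcf21 and Acta2 fell and Dcn rose from E18.5 to P56. These were 85.7% of the 7, against 14.2% of all tested genes. The 5 airway markers took 0.00462% at E13.5 (Scgb1a1, Cyp2f2 and Dynlrb2 at 0), 0.0146% to 0.0215% from E15.5 to P14 and 0.0607% and 0.0562% at P56. The part of these shifts in the member values was not tested. In bulk samples, fewer cells of a type and less RNA per cell cannot be told apart.

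Over the 5 stages, 8 of the 10 members differed and Hif1a and Ldha did not pass the test (limma moderated F-test, Benjamini-Hochberg adjusted p under 0.05). Of all 12964 tested genes, 30.3% were called, so change over the stages was common. The smallest adjusted p-values of the F-test were those of Slc2a1 (0.000906), Eno1 (0.00137) and Egln3 (0.00326). The value for Hif1a was 0.313 and for Ldha 0.0700. Egln3, Slc2a1, Pfkp, Pgk1, Pdk1 and Bnip3 had their highest stage mean at E18.5, the last stage before birth. Hif1a, Eno1 and Ldha were highest at E13.5, and Hk2 was highest at P56.

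**Figure D1:**
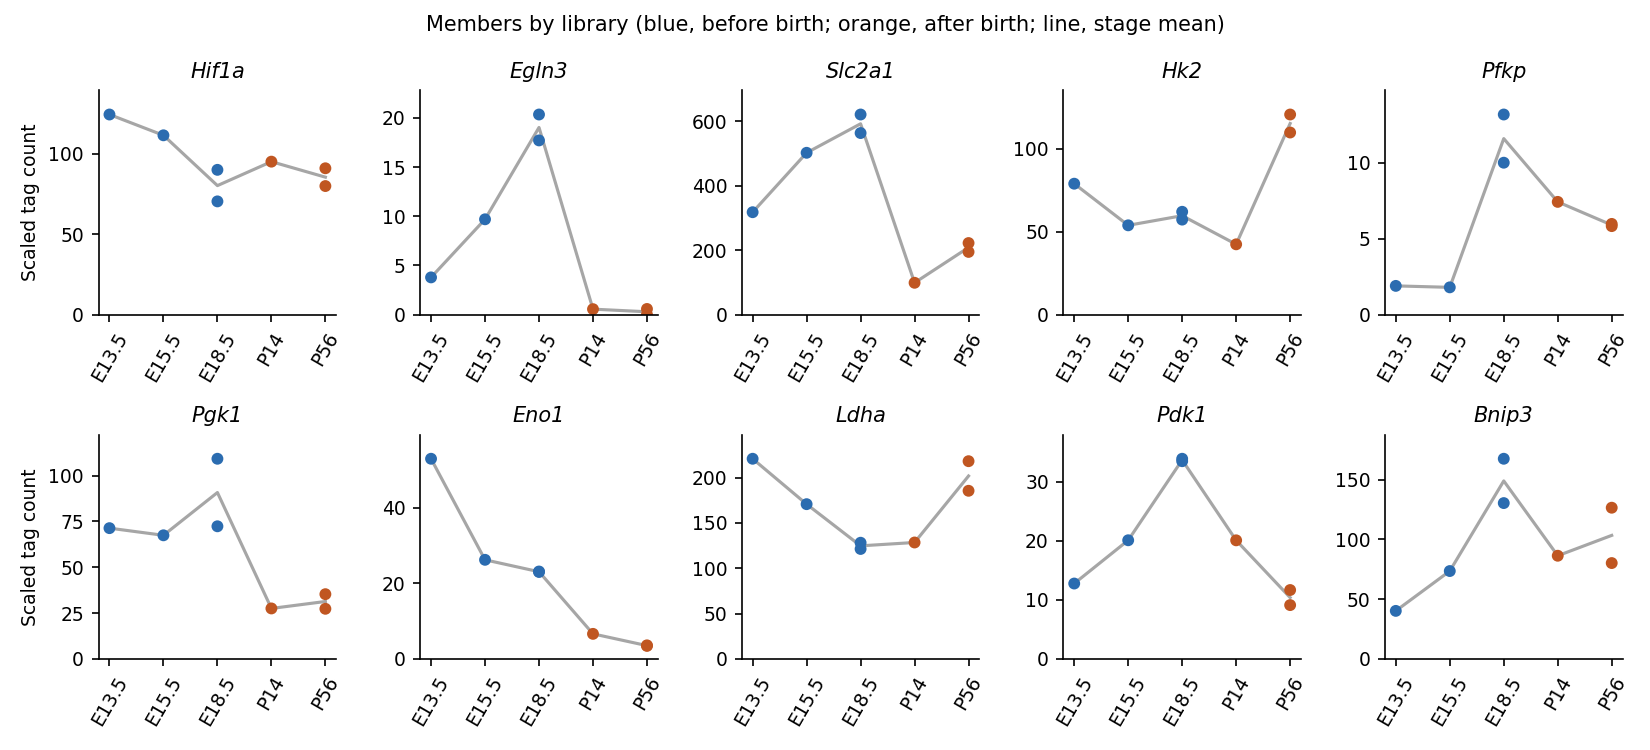
Scaled tag count (vertical axis, linear from 0) of each member against stage (horizontal axis). Each point is 1 library and the line joins stage means. Egln3 stood at 17.7 and 20.3 at E18.5 and at 0.569 or less after birth, while Hk2 was highest in the P56 libraries (121 and 110).

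Counts of members called in each comparison were read against the share of all genes called in the same fit. The comparisons share the E18.5 libraries and so are not independent of each other. From the mean of E13.5 and E15.5 to E18.5, 4 members rose (Egln3, Pfkp, Pdk1 and Bnip3) and Ldha fell, where 29.1% of all tested genes were called (15.8% higher and 13.4% lower). Without the E13.5 library Pfkp alone was called, and DESeq2 called Bnip3 alone. From E18.5 to P14, Egln3 and Slc2a1 fell and none rose, where 3.11% of genes were called (1.87% higher and 1.24% lower). From E18.5 to P56, 5 fell (Egln3, Slc2a1, Pgk1, Eno1 and Pdk1) and Hk2 rose, where 14.2% were called (8.07% higher and 6.15% lower). Without a filter on low values only Eno1 was called. The libraries of these 2 stages did not overlap for 9 members, all but Hif1a, and for 56.6% of all tested genes. From P14 to P56 limma called 0 members and 0.818% of genes (0.123% higher and 0.694% lower). With limma's unadjusted p under 0.05 there were 4 members and 1340 of the 12964 tested genes. The edgeR test called Hk2, and DESeq2 called Slc2a1 and Hk2. The median log2 change of the 10 members was 0.46 to E18.5 from the early stages, -0.74 from E18.5 to P14, -1.17 from E18.5 to P56 and 0.01 from P14 to P56. Over all tested genes these medians were 0.03, 0.08, 0.06 and 0.00.

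**Figure D2:**
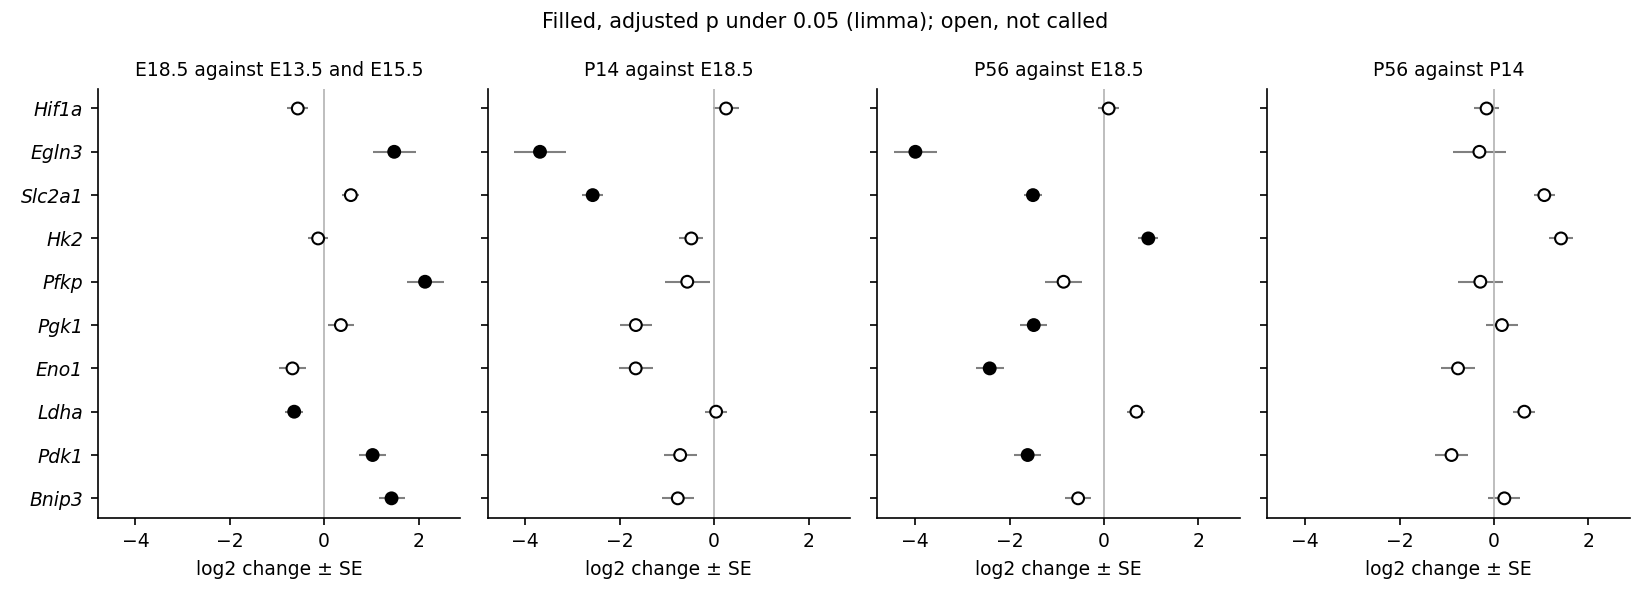
Log2 change (horizontal axis, positive is higher at the stage named first) with its standard error for the 10 members in 4 stage comparisons. Filled points passed limma at an adjusted p under 0.05. Egln3, Slc2a1, Pgk1, Eno1 and Pdk1 are filled on the left for P56 against E18.5 and Hk2 on the right, and no point is filled for P56 against P14.

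Hif1a, the oxygen-regulated subunit of HIF-1, had the narrowest range of the 10. Its scaled tag count was 125 in the E13.5 library, 112 in that of E15.5, 90.1 and 70.5 in the E18.5 pair, 95.2 in the P14 library and 91.1 and 80.0 in the P56 pair. The highest library was 1.77 times the lowest, and the E18.5 and P56 libraries overlapped. The log2 change from the early stages to E18.5 was -0.56 (SE 0.22, limma adjusted p = 0.0974) and from E18.5 to P56 0.10 (SE 0.22, adjusted p = 0.819). Neither passed the test.

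Egln3, a prolyl hydroxylase whose own gene is induced by HIF, had the largest change after birth among the members. Its scaled tag count was 3.78 in the E13.5 library, 9.69 in that of E15.5, 17.7 and 20.3 in the E18.5 pair, 0.550 in the P14 library and 0.569 and 0.00 in the P56 pair. In reads these were 16, 27, 46 and 54 before birth against 2 at P14 and 2 and 0 at P56. The library without a read allows a level of up to 0.972 (3 reads) as a one-sided 95% limit. Its two-sided 95% counting interval ends at 1.19. Every library before birth was above every library after birth. The ratio of E18.5 to P14 was 34.6 (95% counting interval 9.33 to 289.7) and of E18.5 to P56 62.9 (17.0 to 526), from 100 reads at E18.5 against 2 in each case. Egln3 fell at both P14 (limma adjusted p = 0.0218) and P56 (adjusted p = 0.00189). The call at P14 was lost without robust variance estimates (0.0898) and without a filter on low values (0.0775). It rose 2.83-fold from the mean of the early stages to E18.5 (log2 change 1.48, SE 0.45, adjusted p = 0.0459). That rise was not called without the E13.5 library, where the log2 change was 0.90 (adjusted p = 0.351). It was also not called with DESeq2 (0.262), a pseudocount of 0.5 (0.0842), no filter on low values (0.105) or no robust variance estimates (0.0617).

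The list of HIF subunits and oxygen sensors holds 10 genes, Hif1a and Egln3 included, and all were tested. From the early stages to E18.5, Epas1, Hif3a and Egln3 rose and Arnt2 fell, 40.0% of the list against 29.1% of all tested genes. Epas1 rose and Hif3a and Egln3 fell from E18.5 to P56, 30.0% of the list against 14.2%. The median log2 change of the list from E18.5 to P56 was 0.13, against 0.06 over all tested genes. Epas1, which encodes the alpha subunit HIF-2alpha, had 1 read at each early stage and stood at 4.62 and 4.14 in the E18.5 pair, 37.1 in the P14 library and 74.0 and 84.2 in the P56 pair. It rose at E18.5 over the early stages, by a ratio of 15.4 (95% counting interval 3.80 to 134, from 23 reads against 2; limma adjusted p = 0.00414). It rose again from E18.5 to P14 (log2 change 2.83, SE 0.41, adjusted p = 0.0187) and to P56 (log2 change 3.89, SE 0.33, adjusted p = 0.00053). Hif3a, an alpha subunit that can act against the others and is itself HIF-induced, was singled out after its values were seen. It stood at 1.89 in the E13.5 library, 24.4 in that of E15.5, 42.4 and 50.1 in the E18.5 pair, 0.825 in the P14 library and 1.14 and 0.324 in the P56 pair. Hif3a therefore had the same order of stages as Egln3 before birth and was near 0 after it. The E18.5 to P14 ratio of Hif3a was 56.1 (95% counting interval 19.0 to 274, from 243 reads against 3). Arnt2, a beta subunit paralog also singled out afterwards, fell between the early stages (53.6 and 39.1) and E18.5 (0.385 and 0.754; adjusted p = 0.000566). Egln1, the main HIF prolyl hydroxylase, ranged only from 59.3 to 105 and did not pass the F-test (adjusted p = 0.229). The values of Hif1an, which encodes the asparagine hydroxylase of HIF, ran from 20.8 at E15.5 to 75.1 at P14, and those of Arnt from 34.5 at E13.5 to 79.7 at P56.

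**Figure D3:**
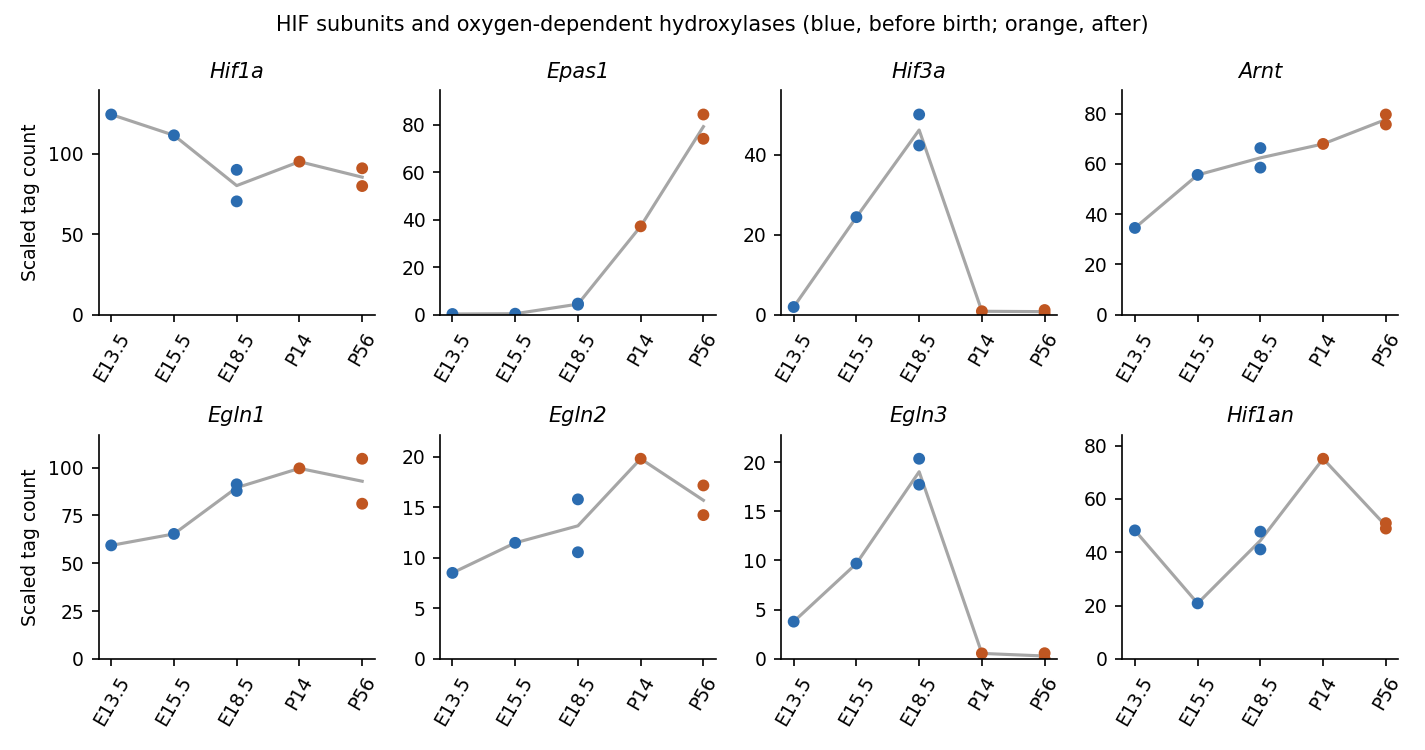
Scaled tag count (vertical axis, linear from 0) of HIF subunits and oxygen-dependent hydroxylases against stage (horizontal axis). Each point is 1 library and the line joins stage means. Egln3 and Hif3a are high at E18.5 and near 0 after birth, whereas Epas1 runs from 4.62 and 4.14 at E18.5 to 74.0 and 84.2 at P56.

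Slc2a1, which encodes the glucose carrier GLUT1, was high before birth and low after it. Its scaled tag count was 318 in the E13.5 library, 503 in that of E15.5, 564 and 622 in the E18.5 pair, 98.8 in the P14 library and 222 and 195 in the P56 pair. The lowest library before birth was above the highest after birth, and P14 was the lowest of all. Slc2a1 fell from 593 ± 40.8 (SD, n = 2) at E18.5 to 98.8 at P14, a 6.00-fold ratio (log2 change -2.57, SE 0.22, limma adjusted p = 0.0025; 0.063 without robust variance estimates). It was 2.84-fold lower at P56, at 208 ± 19.5 (SD, n = 2; log2 change -1.50, SE 0.18, limma adjusted p = 0.00246). P56 stood 2.11-fold above P14, which did not pass the test (adjusted p = 0.106). It passed with DESeq2 (adjusted p = 0.0071) but not with edgeR (0.057). The value at E18.5 was 1.44-fold that of the early stages and missed the threshold (adjusted p = 0.0538). That difference passed with TMM scaling (adjusted p = 0.0475) and with edgeR (0.0414). It did not pass with DESeq2, a pseudocount of 0.5 or 5, no filter on low values or no robust variance estimates. It was called in 4 of 12 alternatives other than limma without a library, with log2 changes from 0.25 to 0.91.

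Of the listed carriers of glucose and monocarboxylates, Slc2a1 included, 7 of the 9 found in the files were tested. Slc16a7 rose, and Slc2a1 and Bsg fell, from E18.5 to P56, 42.9% of those tested against 14.2% of all tested genes. From the early stages to E18.5, Bsg rose and Slc16a3 fell, 28.6% of those tested and near the 29.1% called among all genes. Slc16a7, a pyruvate and lactate carrier (MCT2), rose where Slc2a1 fell. It stood at 4.25 to 12.9 in the libraries before birth, 53.6 at P14 and 84.2 and 63.2 at P56, and rose from E18.5 to P14 (log2 change 2.71, limma adjusted p = 0.0157) and to P56 (3.14, adjusted p = 0.000912). Slc16a3, the lactate exporter MCT4, fell from 69.5 and 39.8 at the early stages to 7.70 and 6.41 at E18.5 (adjusted p = 0.00095). Bsg, basigin, the chaperone that brings MCT carriers to the surface, rose to 16741 and 21493 at E18.5 (adjusted p = 0.000684). It then fell to 6689 and 4674 at P56 (adjusted p = 0.00291). Slc16a1 (MCT1) lay between 61.2 and 205 and did not pass the F-test (adjusted p = 0.124).

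Hk2 and Pfkp act early in glycolysis. Hk2 encodes hexokinase 2, which phosphorylates glucose. Its scaled tag count was 78.9 in the E13.5 library, 53.8 in that of E15.5, 62.0 and 57.3 in the E18.5 pair, 42.4 in the P14 library and 121 and 110 in the P56 pair. Both P56 libraries were above every other library. Hk2 was the only member that rose from E18.5 to P56, 1.93-fold (log2 change 0.94, SE 0.21, limma adjusted p = 0.0259). DESeq2 (adjusted p = 0.0726) and limma without a filter on low values (0.066) did not call it. The edgeR test without each library in turn called that rise only without E18.5 replicate 1. It gave adjusted p = 0.0528 without E18.5 replicate 2, 0.167 without P56 replicate 1 and 0.0743 without P56 replicate 2. The 2.72-fold difference of Hk2 between P14 and P56 missed the threshold with limma (adjusted p = 0.0695) and passed with edgeR (adjusted p = 0.0315) and DESeq2 (0.0231).

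Pfkp encodes the platelet form of phosphofructokinase, the committed step of glycolysis. It had few reads, 8 and 5 at the early stages and 18 to 35 in the later libraries. Its scaled tag count was 1.89 in the E13.5 library, 1.79 in that of E15.5, 10.01 and 13.2 in the E18.5 pair, 7.43 in the P14 library and 5.98 and 5.83 in the P56 pair. Every later library was above both early ones. Pfkp rose 6.30-fold to E18.5 (log2 change 2.14, SE 0.39, limma adjusted p = 0.00696) and was the only member still called there without the E13.5 library. With DESeq2 its adjusted p was 0.0525, the only setting tried, other than limma without an E18.5 library, that did not call it. Its difference from E18.5 to P56 did not pass (log2 change -0.86, adjusted p = 0.200).

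Pgk1 and Eno1 act in the later steps of the pathway, and both were lower after birth. Pgk1, phosphoglycerate kinase, makes the first ATP of the pathway. It stood at 71.4 in the E13.5 library, 67.5 in that of E15.5, 72.4 and 109 in the E18.5 pair, 27.5 in the P14 library and 27.3 and 35.3 in the P56 pair. All 4 libraries before birth were above the 3 after it. Pgk1 fell 2.90-fold from E18.5 to P56 (log2 change -1.49, SE 0.28, limma adjusted p = 0.0144). That fall was not called without robust variance estimates (adjusted p = 0.0574) or without a filter on low values (0.190). The 3.30-fold difference to P14 had an adjusted p = 0.0530. It passed with edgeR (0.0146), DESeq2 (0.00872) and TMM scaling (0.0487). GENCODE lists 3 named copies of Pgk1 and 2 of Ldha, none of which has a row of its own in the files, so reads of these copies may be counted with either gene or lost.

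Eno1 encodes enolase 1. It stood at 52.9 in the E13.5 library, 26.2 in that of E15.5, 23.1 and 23.0 in the E18.5 pair, 6.60 in the P14 library and 3.41 and 3.56 in the P56 pair. The order of the libraries followed age, with no overlap between the stages before and after birth. Eno1 fell 6.60-fold from E18.5 to P56 (log2 change -2.42, SE 0.29, limma adjusted p = 0.00246). The 3.49-fold difference to P14 had an adjusted p = 0.0590 with limma and 0.0308 with edgeR. Eno1b, a close copy that can share its reads, was looked at afterwards and stood at 11.6 and 8.29 at E18.5 and 2.28 and 2.27 at P56. The sum of Eno1 and Eno1b was 34.6 and 31.3 at E18.5 and 5.69 and 5.83 at P56, so the fall did not depend on how reads were split between them.

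Ldha, lactate dehydrogenase A, did not fall after birth. Its scaled tag count was 221 in the E13.5 library, 171 in that of E15.5, 128 and 121 in the E18.5 pair, 128 in the P14 library and 218 and 186 in the P56 pair. The E18.5 libraries were the lowest with P14, and the P56 libraries were back within the range of the early stages. Ldha fell 1.57-fold from the early stages to E18.5 (log2 change -0.64, SE 0.19, limma adjusted p = 0.0438). That fall was not called with DESeq2 (0.0653), no filter on low values (0.0821), no robust variance estimates (0.0506), without the E13.5 library (adjusted p = 0.268) or with edgeR without E18.5 replicate 1 (0.0512) or replicate 2 (0.101). The 1.62-fold higher level at P56 than at E18.5 missed the threshold (log2 change 0.69, adjusted p = 0.0554).

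Of the 25 listed glycolytic enzymes, the 5 in the members included, 24 were tested. From the early stages to E18.5, 5 rose (Pfkp, Aldoa, Pgam2, Pfkfb2 and Pfkfb4) and 5 fell (Ldha, Pgam1, Eno2, Pkm and Pfkfb1), 41.7% against 29.1% of all tested genes, with a median log2 change of -0.19 against 0.03 over all tested genes. From E18.5 to P14, Gapdh and Pgam1 fell and none rose, 8.33% against 3.11% of all tested genes. From E18.5 to P56, 3 rose and 6 fell, 37.5% against 14.2% of all tested genes, with a median log2 change of -0.01 against 0.06 over all tested genes. Of the 6, Gapdh, Pgk1, Pgam1, Pgam2 and Eno1 catalyse the consecutive steps from glyceraldehyde phosphate to phosphoenolpyruvate. Pgam1, phosphoglycerate mutase, fell from 733 and 695 at E18.5 to 226 and 223 at P56 (log2 change -1.67, SE 0.17, limma adjusted p = 0.00106). It was already at 234 at P14 (adjusted p = 0.011), and had fallen to E18.5 from 1760 and 1057 at the early stages (adjusted p = 0.00624). Gapdh fell from 65.1 and 61.0 at E18.5 to 20.6 at P14 (adjusted p = 0.0322) and 25.9 and 27.9 at P56 (adjusted p = 0.0134). Gapdh and Pgam1 have many near-identical copies in the genome, so their single values are uncertain. The other fall was that of Pfkfb3, which makes the phosphofructokinase activator fructose 2,6-bisphosphate (11.2 and 13.6 at E18.5, 1.14 and 1.30 at P56, adjusted p = 0.00609). Its paralog Pfkfb2 rose from 201 and 155 to 340 and 373 (adjusted p = 0.0193), and Ldhb, the other lactate dehydrogenase subunit, from 23.9 and 25.6 to 61.8 and 60.2 (adjusted p = 0.0123). Aldoa, aldolase A, showed little difference, at 2363 and 2688 against 2315 and 2844 (adjusted p = 0.949). Pkm, pyruvate kinase, fell from 233 and 130 at the early stages to 90.9 and 88.2 at E18.5 (adjusted p = 0.0276). Those of the 25 outside the naming rule, among them Pgam2, Pfkfb3, Pfkfb4, Pfkfb1, Eno2 and Ldhb, were named after their values were seen.

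**Figure D4:**
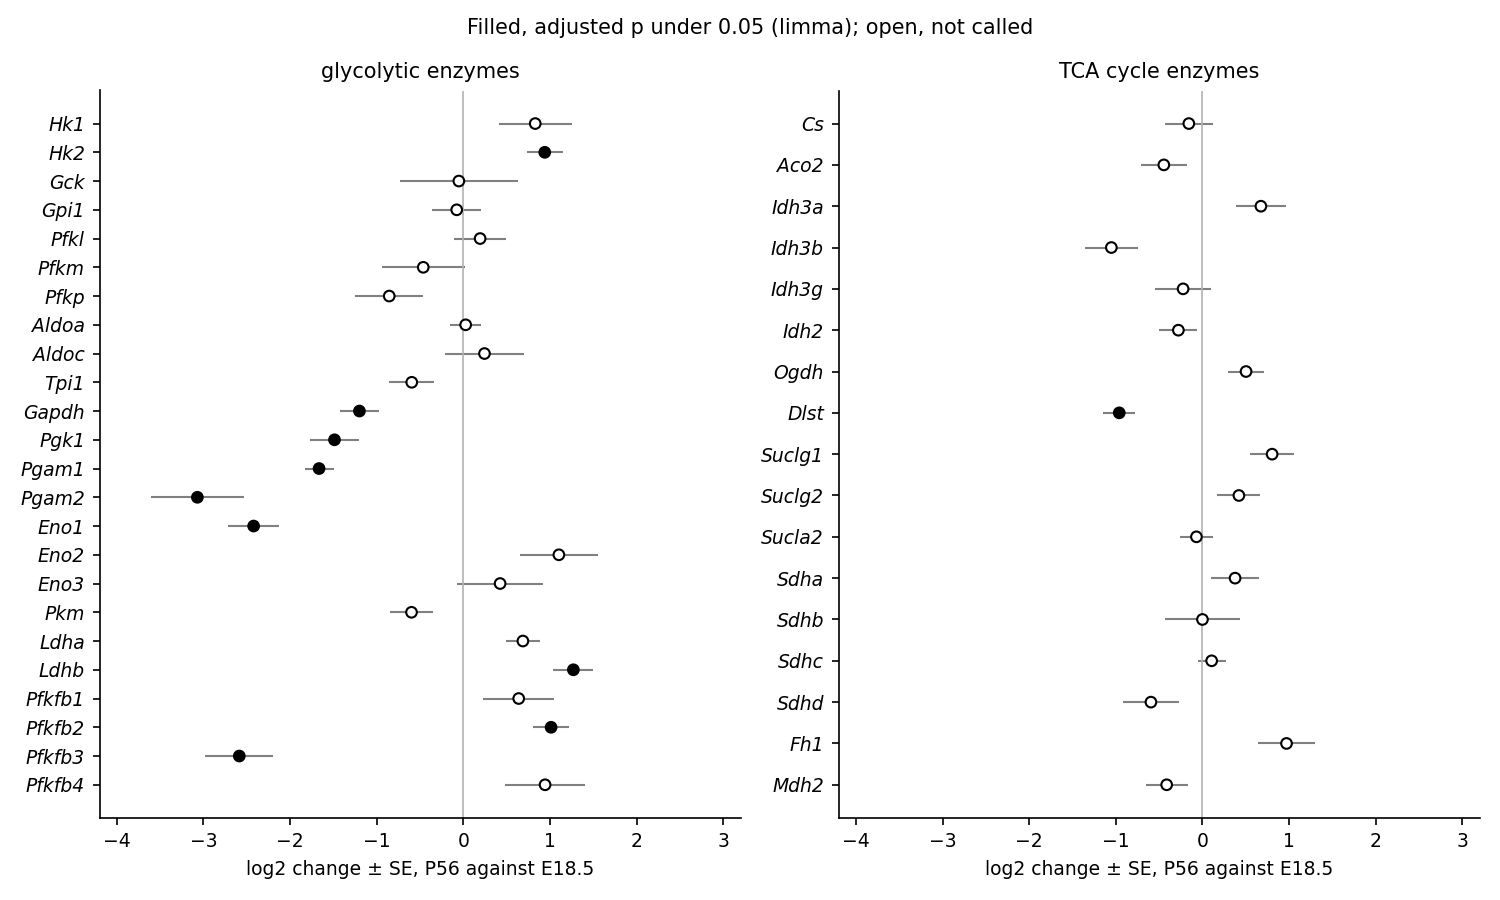
Log2 change from E18.5 to P56 (horizontal axis, positive is higher at P56) with its standard error, for tested glycolytic enzymes in pathway order with the Pfkfb regulators last (left) and tricarboxylic acid cycle enzymes (right). Filled points passed limma at an adjusted p under 0.05. The filled points on the negative side are Gapdh, Pgk1, Pgam1, Pgam2, Eno1 and Pfkfb3, and Dlst is the only filled point on the right.

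Pdk1 encodes a pyruvate dehydrogenase kinase, which switches off the enzyme complex that feeds pyruvate into the mitochondrial cycle. It stood at 12.8 in the E13.5 library, 20.1 in that of E15.5, 33.5 and 33.9 in the E18.5 pair, 20.1 in the P14 library and 9.11 and 11.7 in the P56 pair. The E18.5 libraries were the highest and the P56 libraries the lowest. Pdk1 rose 2.05-fold to E18.5 (log2 change 1.03, SE 0.29, limma adjusted p = 0.0333). Without the E13.5 library the adjusted p was 0.231, with DESeq2 0.23 and with no filter on low values 0.0603. It then fell 3.25-fold to P56 (log2 change -1.62, SE 0.29, adjusted p = 0.0109).

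Of the 13 listed genes of pyruvate entry, 12 were tested. From the early stages to E18.5, 4 rose and none fell, 33.3% of those tested and near the 29.1% called among all genes. Their median log2 change was 0.53 against 0.03 over all tested genes. Besides Pdk1 these were the kinase gene Pdk2, named after its values were seen, and Mpc1 and Mpc2, the subunits of the mitochondrial pyruvate carrier. Mpc1 went from 70.9 and 164 to 353 and 261 (limma adjusted p = 0.00345), and Mpc2 from 7.80 and 12.9 to 26.9 and 28.3 (adjusted p = 0.0106). Neither was called from E18.5 to P56 (adjusted p = 0.0837 for Mpc1 and 0.337 for Mpc2). Over that step Pdk1 and the phosphatase gene Pdp1 fell and none of the 12 rose. These were 16.7% of those tested, near the 14.2% called among all genes. Pdha1, a pyruvate dehydrogenase subunit, lay between 18.2 and 31.6 and did not pass the F-test (adjusted p = 0.594).

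All 17 listed enzymes of the tricarboxylic acid cycle were tested. From E18.5 to P56 only Dlst, a subunit of the 2-oxoglutarate dehydrogenase complex, fell (from 440 and 462 to 212 and 252, limma adjusted p = 0.0149), and none rose, so that 5.88% were called against 14.2% of all tested genes. The median log2 change was -0.07, against 0.06 over all tested genes. To E18.5 from the early stages Ogdh, another subunit of that complex, rose from 232 and 306 to 513 and 722 (adjusted p = 0.00593). Over the same step Suclg2 fell from 137 and 90.4 to 39.7 and 55.8 (adjusted p = 0.0107). These were 11.8% of the list against 29.1% of all tested genes.

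Bnip3, a mitochondrial protein that promotes mitophagy and is induced by HIF, rose before birth. It stood at 40.2 in the E13.5 library, 73.6 in that of E15.5, 131 and 168 in the E18.5 pair, 86.4 in the P14 library and 80.2 and 127 in the P56 pair. Both E18.5 libraries were above all others, although the higher P56 library came close to the lower of them. Bnip3 rose 2.62-fold to E18.5 (log2 change 1.43, SE 0.28, limma adjusted p = 0.00869). Without the E13.5 library the adjusted p was 0.0792, and with no filter on low values 0.126. Its values after birth did not differ from E18.5 beyond the threshold (adjusted p = 0.282 at P14 and 0.241 at P56).

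Of the 30 listed hypoxia response genes, Egln3, Pdk1 and Bnip3 included, 26 were tested. From the early stages to E18.5, 9 rose and 3 fell (Mif, Tfrc and Plod2), 46.2% of those tested against 29.1% of all genes. The median log2 change was 0.61 against 0.03 over all tested genes. From E18.5 to P56, 2 rose (Bhlhe40 and Tfrc) and 6 fell, 30.8% against 14.2% of all genes, with a median of -0.30 against 0.06. Vegfa, the vessel growth factor, went from 13.9 and 27.3 at the early stages to 408 and 369 at E18.5 (limma adjusted p = 2.27e-05). It was at 241 at P14 and fell to 72.0 and 66.1 at P56 (adjusted p = 0.00041 against E18.5 and 0.0233 against P14). Ndrg1, a stress-induced gene singled out after its values were seen, had a course like that of Egln3. It stood at 3.54 in the E13.5 library, 32.3 in that of E15.5, 75.1 and 102 in the E18.5 pair, 7.43 in the P14 library and 11.7 and 7.13 in the P56 pair (adjusted p = 0.0095 for P14 and 0.00151 for P56 against E18.5). Other members of the list did not follow it. P4ha1, a collagen prolyl hydroxylase subunit, rose to 771 and 817 at E18.5 (adjusted p = 0.000236) and stood at 1398 at P14 and 1116 and 1156 at P56. Bhlhe40, a transcriptional repressor, rose at both steps and stood at 147 and 170 at P56 (adjusted p = 0.00174 against E18.5). Plod2, a collagen lysyl hydroxylase, was highest at the early stages (64.3 and 66.7) and fell to 2.56 and 1.62 at P56 (adjusted p = 0.0011 against E18.5).

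E13.5 and E15.5 had 1 library each, so no test was made between them. The 95% counting intervals of the libraries, which cover counting error only, did not overlap for 6 of the 10 members, and for 29.9% of all tested genes. The value at E15.5 was the higher for Egln3, Slc2a1 (318 and 503) and Bnip3 (40.2 and 73.6). It was the lower for Hk2, Eno1 (52.9 and 26.2) and Ldha (221 and 171). The intervals of Hif1a, Pfkp, Pgk1 and Pdk1 overlapped.

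Over the 7 libraries, Egln3 ran most like Pgk1 (Pearson r = 0.91 of log2 values) and Slc2a1 (0.90) among the members. Ldha and Pdk1 ran opposite (r = -0.90), as did Hif1a and Bnip3 (r = -0.93). Hif1a and Ldha did not pass the F-test, and their highest library was only 1.77 and 1.82 times the lowest. These correlations describe 7 libraries that differ in age, in cell type markers and in depth, and carry no test. They do not measure the size of a change. Of 1457 other tested genes with a mean of at least 100, those closest to Slc2a1 were the ubiquitin ligase gene Huwe1 (r = 0.95) and Naca (0.95), a subunit of the nascent polypeptide-associated complex. Huwe1 ranged only from 222 to 348 and Naca from 99.6 to 199. Closest to Egln3 were the predicted gene Gm6548 (r = 0.99), the DNA damage kinase gene Atm (0.99) and Slmo2 (0.98). Their ranges were far narrower than that of Egln3: 270 to 388 for Gm6548, 84.2 to 156 for Atm and 58.6 to 207 for Slmo2. The gene most like Eno1 was the fetal RNA-binding protein gene Igf2bp3 (r = 0.99), which went from 326 at E13.5 to 0 and 0.324 at P56. For Pdk1 it was the laminin chain gene Lama5 (r = 0.97; 1965 and 2258 at E18.5, 363 and 408 at P56). For Bnip3 it was Fastk, the gene of a serine/threonine kinase (r = 0.98), and for Pfkp the histone methyltransferase gene Ezh1 (r = 0.99).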

How the data were processed

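Each deposited table gives 1 signal value for every gene: the authors' tag count after division by a library-wide factor. The values show this, since 100% came out as whole reads (within 0.01) on division by the table's step. Bowtie2 (2.2.5), R (3.4.0) and the mm10 genome are named per the submitters' processing notes. Tag assignment and the scaling method are items not given in the sources used here. Both the members and the lists were chosen with earlier results of these data known.

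Genes passing edgeR's filterByExpr by stage on the recovered reads (enough reads in at least 1 library, so that a gene could pass through its highest stage) were tested. The fit was limma-trend on log2(value + 1), with a coefficient per stage over all 7 libraries, robust variance moderation, and 2 degrees of freedom were left. P-values were adjusted by Benjamini-Hochberg over 12964 genes. For stages without a replicate the spread was taken from E18.5 and P56. The pseudocount of 1 pulls log2 changes of low genes towards 0, while ratios of means do not carry it. Because the values are scaled counts, edgeR and DESeq2 on recovered reads were alternatives. Levels were compared within a gene only, since a 3' tag does not measure genes equally. Counting intervals are 95% exact Poisson or conditional binomial.

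Named were the members; up to 4 genes per list with the smallest F-test p and a mean of at least 20; glycolytic enzymes with a mean of at least 100; and the 3 genes most like each member. Not all are reported. The fit was also run on simulated counts with known changes, drawn around means shared by all libraries. The outcome of that run is not reported here and no result rests on it. Software was limma 3.58.1, DESeq2 1.42.0 and edgeR 4.0.16 under R 4.3.3, with Python 3.11.15.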

Additional observations from a re-analysis of the deposited data

How the results depend on the processing

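No called change of a member reversed direction under any alternative. From E18.5 to P56, Egln3, Slc2a1, Pgk1, Eno1 and Pdk1 were called in 10 to 12 of 12 alternatives other than limma without a library, and Hk2 in 6. From the early stages to E18.5, DESeq2 called 2412 genes and 1 member. No filter on low values gave 1352 genes higher and 2267 lower of 21121, and 2 members, Pfkp and Eno1. Eno1 was not called in the main fit. Fits without robust variance estimates gave 1654 genes higher and 1362 lower, and 3 members. From E18.5 to P14, edgeR called 686 genes and 4 members, and no filter 1051 genes. Over that step fits without robust variance called 6 genes and 0 members (2326 genes and 4 members at an unadjusted p under 0.05). From E18.5 to P56, no filter left 679 genes and 1 member, and fits without robust variance 1125 genes. From P14 to P56, edgeR called 267 genes (74 higher and 193 lower, against 16 and 90 with limma) and 1 member, DESeq2 196 genes and 2 members, no filter 800 genes and 1 member, and fits without robust variance 0 genes (1388 at an unadjusted p under 0.05). Over the 5 stages, 4 members were called with no filter, where 7 members and 6677 of 21121 genes had an unadjusted p under 0.05. Without robust variance 2550 genes and 4 members were called. The cause of these differences was not tested. From the early stages to E18.5 the median of all genes was 0.03 with limma and 0.13 with edgeR.

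The replicate numbers did not pair the libraries (correlation of replicate differences between E18.5 and P56 -0.04 over 6807 genes). With a replicate block, 1 residual degree of freedom, 1893 genes and 2 members were called from the early stages to E18.5, and 16 genes and 0 members from E18.5 to P14. With the same replicate block 894 genes were called from E18.5 to P56, 0 from P14 to P56, and 1561 genes and 4 members over the 5 stages. The block ended the calls of Egln3 (adjusted p = 0.104), Ldha (0.142) and Pdk1 (0.111) to E18.5, of Egln3 (0.149) and Slc2a1 (0.0783) at P14 and of Hk2 (0.0702) from E18.5 to P56.

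Leaving out 1 library gave 0 to 3817 genes and 0 to 6 members with limma from the early stages to E18.5. Limma gave 0 genes and 0 members in the other comparisons, on 1 residual degree of freedom. The edgeR test without 1 library, added after seeing the data, gave 1660 to 4534 genes and 1 to 7 members for E18.5 against the early stages. It gave 1154 to 1620 genes and 4 to 5 members for P14 against E18.5, and 1204 to 2798 genes and 5 to 7 members for P56 against E18.5. For P56 against P14 it gave 128 to 203 genes and 0 members, and over the 5 stages 3636 to 6872 genes (6557 and 6872 without an E18.5 library) and 5 to 9 members. Members with few reads, Egln3 after birth and Pfkp at the early stages, are limited by depth.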
